A study of Flaveria sonorensis and Flaveria ramosissima with 8 samples.

Results

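To describe transcripts that were measured in leaves of both species but stood far higher in *F. sonorensis* than in *F. ramosissima*, 133 rows were taken from a table of 23519 rows. The rule for these rows had 4 parts: a value above 0 TPM in all 8 libraries, a mean of at least 100 TPM over the *F. sonorensis* libraries, a mean below 100 TPM over the *F. ramosissima* libraries, and a ratio of these means of at least 8. TPM is a measure of transcript abundance that corrects the reads of a gene for the length of its transcript, then sets every library to the same sum. The 133 rows were 1.02% of the 13103 rows above 0 in all 8 libraries, here called shared rows, and 11.4% of the 1169 shared rows that reached the same floor in *F. sonorensis*. As the rule used the species difference itself, this difference is described below without a test.

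RNA-seq was performed on newly expanded mature leaves, with 4 libraries per species, all from the low CO2 condition. Per the labels, the growth chamber gave plants of both species 200 μmol m-2 s-1 of light at 22 °C, with 16 h of light and 8 h of dark and 70% humidity. The labels give CO2 as 100 μmol m-2 s-1, which is no unit of concentration, and the titles carry "6 months" without saying what this time counts. The labels name no accession of either species and do not say whether libraries came from separate plants, so the spread between replicates may be technical. The summed TPM over all rows of the table ranged from 849828 to 911412 per library, and the depth of the libraries is unknown.

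Both species are C3–C4 intermediates, in which leaf photosynthesis lies between the C3 and the C4 type. In such plants, glycine from photorespiration is decarboxylated mainly in bundle sheath cells, where the released CO2 is captured again. *F. ramosissima* is known for an additional, partial C4 cycle, whereas *F. sonorensis* relies on the glycine shuttle, and low CO2 is a condition that raises photorespiration in leaves. The rows carry running numbers and no gene names, therefore no row could be placed in these pathways, the leaf label could not be checked against marker genes, and no sequence is shown. In RNA from whole leaves, fewer cells of a type and less transcript per cell cannot be told apart.

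The abundance of the 133 rows was moderate to high in *F. sonorensis* and mostly low in *F. ramosissima*. The mean over the *F. sonorensis* libraries had a median of 172 TPM, with quartiles of 127 and 309 TPM and a highest value of 1297 TPM. The mean over the *F. ramosissima* libraries had a median of 12.1 TPM, with quartiles of 7.23 and 17.3 TPM and a range from 0.035 to 93.3 TPM. Specifically, 11 rows lay below 1 TPM in *F. ramosissima*, 43 rows from 1 to 10 TPM and 79 rows at 10 TPM or more, of which 8 reached 50 TPM. In *F. sonorensis*, 76 rows had a mean under 200 TPM, 40 rows from 200 to 500 TPM, 14 rows from 500 to 1000 TPM and 3 rows over 1000 TPM. Most rows thus had a mean of 1 TPM or more in *F. ramosissima*. The rule asked for a value above 0 in every library, and with the depth unknown, where the edge of detection lies in TPM is not known.

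The place of these rows within each leaf transcriptome differed in the same way. When all rows of the table were ordered by their mean TPM, 111 of the 133 rows were among the 1000 highest rows of *F. sonorensis*, although 2 were among its 100 highest. None of the 133 was among the 1000 highest rows of *F. ramosissima*, where their ranks went from 1164 to 20270 with a median of 5185. The median rank in *F. sonorensis* was 647. The floor of 100 TPM and the ceiling of 100 TPM in the rule fix much of this contrast.

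**Figure D1:**
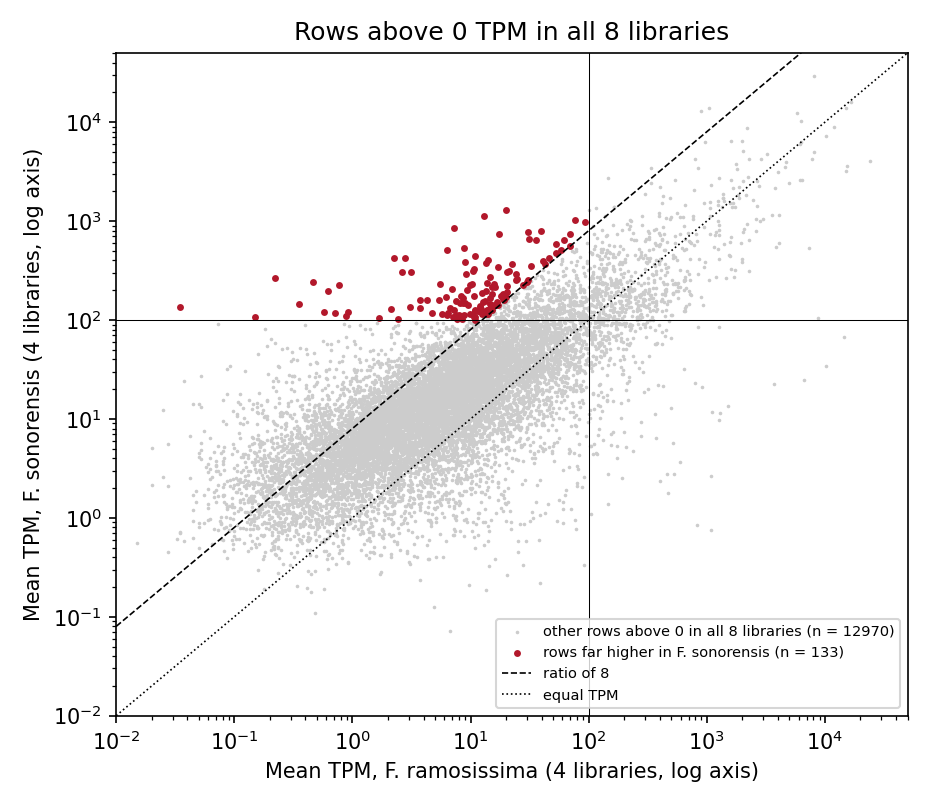
Mean TPM of each shared row in *F. ramosissima* (x axis, log scale) and in *F. sonorensis* (y axis, log scale), over 4 libraries each, with the 133 rows far higher in *F. sonorensis* in red and the other 12970 shared rows in grey. The dashed line marks a ratio of 8, the dotted line equal TPM and the solid lines 100 TPM. Most red points lie close to the dashed line, as 70 of the 133 rows had a ratio from 8 to 16, and a few spread far to the left.

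The ratio of means, *F. sonorensis* over *F. ramosissima*, ranged from 8.05 to 3876 with a median of 14.9. A ratio from 8 to 16 was found in 70 rows, from 16 to 32 in 32 rows, from 32 to 128 in 19 rows and of at least 128 in 12 rows. Rows of a higher ratio had lower values in *F. ramosissima*, whose mean is the divisor of the ratio, so the classes fix much of this order. The rows of these 4 classes had a median *F. ramosissima* mean of 15.2, 9.23, 4.32 and 0.594 TPM. Their level in *F. sonorensis* did not follow the ratio in the same way, as the corresponding medians were 154, 204, 304 and 171 TPM. The widest ratios therefore belonged to rows of ordinary abundance in *F. sonorensis* with very low TPM in *F. ramosissima*. How rows were matched between the species is not given. Whether such low values reflect little transcript or how reads were assigned to a row was not tested.

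The ratio is to be read against the shift of the whole table. The median ratio over all shared rows was 2.73, and 13.8% of the 13103 shared rows had a ratio of at least 8 at any level. Among shared rows with at least 100 TPM in *F. sonorensis*, the median ratio was 2.07. The rows far higher in *F. sonorensis* made up a like share of the shared rows from 100 to 200 TPM in that species (11.7% of 647 rows), from 200 to 500 TPM (12.7% of 316 rows) and from 500 to 1000 TPM (13.3% of 105 rows). Their share was 2.97% of the 101 shared rows over 1000 TPM, where 11.9% had a ratio of at least 8 but most of these exceeded the ceiling. The rule applied in the other direction, to rows higher in *F. ramosissima*, gave 73 rows.

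All 133 rows were tested and called higher in *F. sonorensis* by limma on log2(TPM + 1) at a Benjamini-Hochberg adjusted p below 0.05, a threshold that 87.9% of all 16323 tested rows passed in either direction and 62.0% in this one. All 4 *F. sonorensis* values lay above all 4 *F. ramosissima* values in the 133 rows, as they did in 59.2% of the tested rows. The rule used this contrast, and neither count says more than the rule does. The median log2 difference, *F. sonorensis* minus *F. ramosissima*, was 3.84 over the 133 rows, from 2.97 to 7.76, beside 1.01 over all tested rows and 1.20 over the shared rows among them. A stricter reading sets the lowest *F. sonorensis* library against the highest *F. ramosissima* library. This ratio was at least 8 in 75 of the 133 rows, and its median was 9.17 with a range from 2.85 to 1881. Over all shared rows, 789 (6.02%) reached 8. A row that does so also has a ratio of means of at least 8, which 1810 shared rows had and which the rule asked for. Much of the gap between the 133 rows and all shared rows thus follows from the rule.

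The size of the set rested on the scale on which the species are set against each other. Over all tested rows, 10126 were called higher and 4220 lower in *F. sonorensis* as deposited, compared with 5137 and 8052 after TMM scaling, which sets libraries to a trimmed mean of their log ratios, 5164 and 7385 after median centring and 8480 and 5197 after quantile normalization. The median log2 difference of all tested rows moved from 1.01 to -0.39, -0.22 and 0.50, respectively. When each library was divided by its median over the shared rows, which brings the typical ratio to 1.04, 29 rows met the rule, and all 29 were among the 133. TMM scaling left 26 rows, again all among the 133. Under the TMM scaling, 91 of the 133 rows fell below the ratio of 8 and 63 fell below the floor of 100 TPM. Over the 133 rows, the lowest ratio was 3.03 after median scaling and 2.88 after TMM scaling. The median ratio was 5.73 and 5.42, respectively, beside 1.04 and 0.99 over all shared rows. Quantile normalization left 98 rows, all among the 133, with a median ratio of 12.4 over the 133 rows beside 1.85 over all shared rows. The rule asked for a ratio of at least 8, and these scalings moved the typical ratio by less. That the direction did not turn in the 133 rows therefore follows from the rule. Most of them missed the threshold of 8 under TMM and median scaling, and most kept it under quantile normalization.

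Rows on both sides of the ratio of 8 and of the floor were close in value, while rows near the ceiling lay further apart. The rows with the smallest ratio inside the rule had ratios of 8.05, 8.13 and 8.15, and the rows with the largest ratio outside it had 7.97, 7.93 and 7.92. At the floor, rows with 101, 101 and 102 TPM in *F. sonorensis* were inside and rows with 99.2, 97.8 and 97.6 TPM were outside. At the ceiling, rows with 93.3, 77.3 and 69.9 TPM in *F. ramosissima* were inside, and rows with 102, 108 and 115 TPM were outside. A further 10 rows met all other parts of the rule but exceeded the ceiling. In addition, 22 rows that reached the floor in *F. sonorensis* were not shared rows, of which 18 were listed at 0 in all 4 *F. ramosissima* libraries and 4 in some of them.

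Of the TPM of the 133 rows in *F. sonorensis*, 25.3% came from the 10 rows of highest mean. Gene12118, the highest of them, stood at 1094, 1324, 1327 and 1444 TPM in *F. sonorensis*, given here and below in the order of replicates 1 to 4, with a mean of 1297 ± 147 TPM (SD, n = 4). In *F. ramosissima* it had 9.06, 32.7, 4.17 and 34.5 TPM, with a mean of 20.1 ± 15.7 TPM. The ratio of means was 64.5. The *F. sonorensis* values were close to each other, while the *F. ramosissima* libraries split into replicates 1 and 3 at a low level and replicates 2 and 4 at a higher one, far below any *F. sonorensis* library.

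The second row by mean had 1393, 1113, 1090 and 861 TPM in *F. sonorensis* and 14.2, 8.33, 9.04 and 20.6 TPM in *F. ramosissima*, a ratio of 85.4. The third had 1039, 1058, 962 and 1022 TPM in *F. sonorensis* and 84.3, 67.4, 87.6 and 69.9 TPM in *F. ramosissima*, a ratio of 13.2. The fourth had 703, 1015, 1074 and 1127 TPM in *F. sonorensis* and 105, 85.5, 87.2 and 95.1 TPM in *F. ramosissima*, a ratio of 10.5. The third and the fourth were thus well expressed in both species, and the fourth had the highest *F. ramosissima* mean of all 133 rows. The fifth had 629, 1007, 889 and 851 TPM in *F. sonorensis*, compared with 6.64, 7.24, 7.24 and 7.86 TPM in *F. ramosissima*. Its low level in *F. ramosissima* was the steadiest among these 10 rows, with a CV (SD over mean) of 6.88% between the libraries, and its ratio of 117 was the widest among them.

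The sixth row had 835, 776, 795 and 796 TPM in *F. sonorensis* and 40.1, 46.3, 27.4 and 43.3 TPM in *F. ramosissima*. The seventh had 566, 826, 794 and 880 TPM in *F. sonorensis* and 45.2, 29.6, 15.0 and 34.0 TPM in *F. ramosissima*. The eighth had 709, 773, 687 and 824 TPM in *F. sonorensis* and 62.0, 79.4, 21.9 and 116 TPM in *F. ramosissima*. In these 3 rows replicate 3 was the lowest *F. ramosissima* library. The ninth had 890, 512, 515 and 1051 TPM in *F. sonorensis*, so that replicates 1 and 4 stood high and replicates 2 and 3 low, and 19.8, 16.0, 14.0 and 19.3 TPM in *F. ramosissima*. The tenth had 680, 627, 636 and 716 TPM in *F. sonorensis* and 37.7, 23.2, 38.5 and 25.2 TPM in *F. ramosissima*, with replicates 1 and 3 above replicates 2 and 4, opposite to Gene12118.

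**Figure D2:**
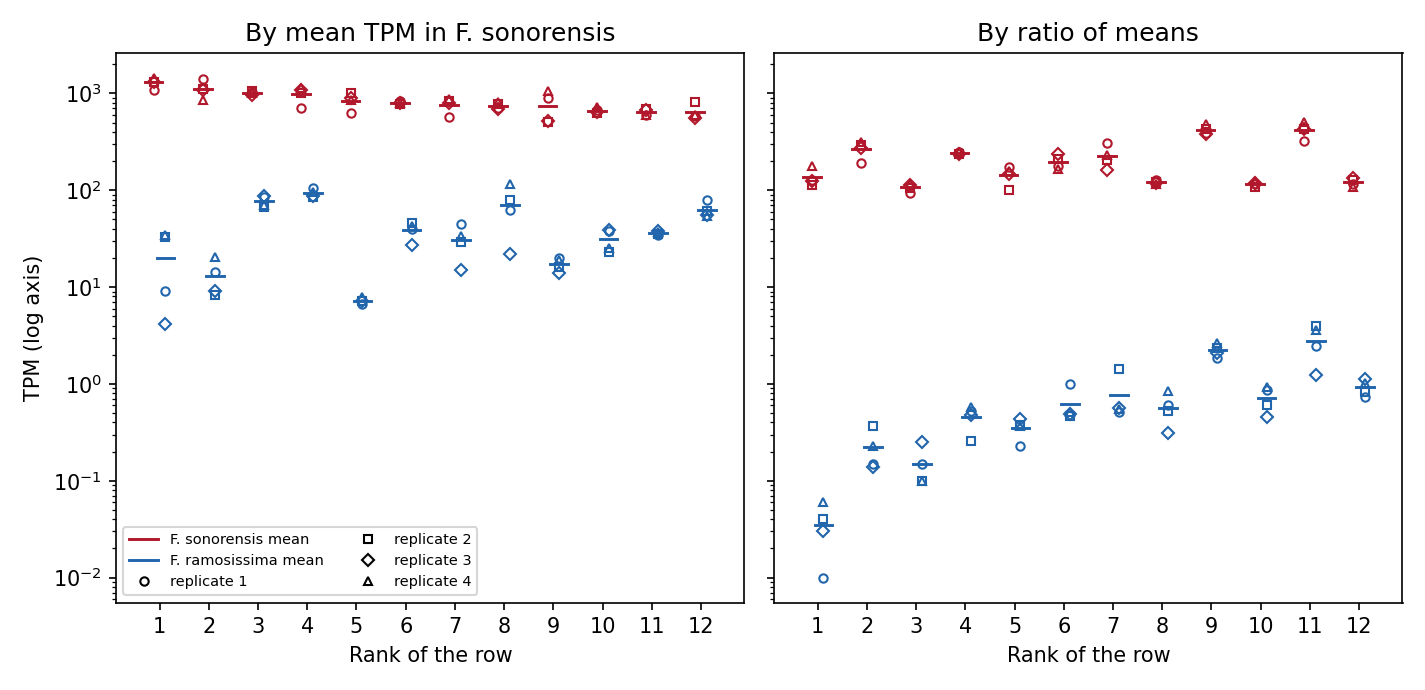
TPM (y axis, log scale) in each library for the 12 rows with the highest mean in *F. sonorensis* (left) and the 12 rows with the largest ratio of means (right), by rank on the x axis. Symbols are replicates 1 to 4 and bars are means over 4 libraries, in red for *F. sonorensis* and in blue for *F. ramosissima*. The left rows kept 7.24 TPM or more on average in *F. ramosissima*, whereas the right rows lay between 0.035 and 2.80 TPM.

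The 12 rows with a ratio of at least 128 had means from 107 to 422 TPM in *F. sonorensis* and from 0.035 to 2.80 TPM in *F. ramosissima*, and in all 12 the lowest *F. sonorensis* value exceeded the highest *F. ramosissima* value more than 8-fold. Gene21619 had the largest ratio, 3876, with 128, 113, 124 and 178 TPM in *F. sonorensis* and 0.01, 0.04, 0.03 and 0.06 TPM in *F. ramosissima*. Values in the table are given in steps of 0.01 TPM, so this ratio has little precision, and the row was a few steps away from a listing at 0. The second by ratio had 190, 294, 271 and 317 TPM in *F. sonorensis* and 0.15, 0.37, 0.14 and 0.23 TPM in *F. ramosissima*. The third had 94.2, 107, 113 and 116 TPM in *F. sonorensis* and 0.15, 0.10, 0.25 and 0.10 TPM in *F. ramosissima*. Both of these rows were low in *F. ramosissima* but above the smallest listed values in each library.

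The fourth row by ratio had 248, 235, 239 and 251 TPM in *F. sonorensis*, the steadiest of these rows with a CV of 3.01%, and 0.52, 0.26, 0.48 and 0.58 TPM in *F. ramosissima*. The fifth had 172, 101, 147 and 157 TPM in *F. sonorensis* and 0.23, 0.38, 0.43 and 0.37 TPM in *F. ramosissima*. The sixth had 178, 209, 238 and 165 TPM in *F. sonorensis* and 1.0, 0.47, 0.49 and 0.51 TPM in *F. ramosissima*. Their ratios were 528, 409 and 320. None of the 12 rows belonged to the 10 with the highest mean in *F. sonorensis*. This rests on where the lists were cut, as the rows ranked 1, 2 and 5 by that mean were ranked 19, 17 and 14 by ratio.

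At the other end, some of the 133 rows stood close to the limit in single libraries. The narrowest gap between the species was found in the row ranked 116 by mean, which had 63.6, 130, 119 and 148 TPM in *F. sonorensis* and 7.38, 22.0, 2.11 and 22.3 TPM in *F. ramosissima*. Its lowest *F. sonorensis* library was 2.85 times its highest *F. ramosissima* library. The row ranked 38 by mean had 125, 96.2, 110 and 824 TPM in *F. sonorensis* and 5.18, 8.06, 6.12 and 17.1 TPM in *F. ramosissima*. Its *F. sonorensis* mean of 289 TPM rested on replicate 4, which gave it the largest CV of the 133 rows in that species, 124%. The row ranked 68 by mean had 124, 167, 189 and 200 TPM in *F. sonorensis* and 2.25, 4.66, 1.65 and 16.2 TPM in *F. ramosissima*, the largest CV in that species, 110%. These rows were singled out after their values were seen.

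Together the 133 rows held 4.11 ± 0.192% of the summed TPM of the *F. sonorensis* libraries and 0.234 ± 0.0372% of that of the *F. ramosissima* libraries (SD, n = 4 each). By library, the share was 3.97, 4.09, 4.0 and 4.39% in replicates 1 to 4 of *F. sonorensis* and 0.235, 0.243, 0.185 and 0.274% in those of *F. ramosissima*. Replicate 4 had the highest share in each species, and replicate 3 had the lowest in *F. ramosissima*. The summed abundance was 35460 ± 1747 TPM in *F. sonorensis* and 2120 ± 328 TPM in *F. ramosissima*.

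How the rows varied between libraries of one species was not used by the rule, and is given as a description, since rows are not replicates. In *F. ramosissima*, replicate 3 was the lowest library in 75 of the 133 rows (56.4%), and replicate 4 was the highest in 65 (48.9%). Over all shared rows, these shares were 55.8% and 40.4%. The median deviation from the mean log2 TPM of the species was -0.30 in replicate 3 and 0.24 in replicate 4, beside -0.24 and 0.15 over all shared rows. Replicate 4 was at least 2-fold above replicate 3 in 38 of the 133 rows (28.6%). The same held for 18.7% of all shared rows. Within the quartiles of the mean of the 133 rows in *F. ramosissima*, it held for 20 of 67 rows (29.9%) and for 15.5% of 2355 other shared rows. Replicate 3 was thus low and replicate 4 high over all shared rows too, while the 2-fold gap was more frequent in the 133 rows. The 73 rows under the rule in the other direction did not share this. Their median deviations were 0.04 in replicate 3 and -0.07 in replicate 4.

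In *F. sonorensis*, replicate 1 was the lowest library in 66 of the 133 rows (49.6%) and replicate 4 the highest in 57 (42.9%), compared with 35.6% and 31.2% of all shared rows. In the 418 shared rows that met both TPM limits but had a ratio below 8, the shares were 46.7% and 32.3%. The median deviations were -0.11 in replicate 1 and 0.09 in replicate 4, beside -0.02 and 0.04 over all shared rows. For the 418 rows, they were -0.06 and 0.05. Between pairs of *F. sonorensis* libraries, the median absolute log2 difference over the 133 rows was 0.28 to 0.34 for the 3 pairs with replicate 1 and 0.12 to 0.19 for the other 3 pairs. It was 0.21 to 0.23 and 0.08 to 0.15 over the 418 rows, and 0.24 to 0.27 and 0.15 to 0.21 over all shared rows. Replicate 1 thus stood apart from the other libraries of its species at large, in the 133 rows as in the others.

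**Figure D3:**
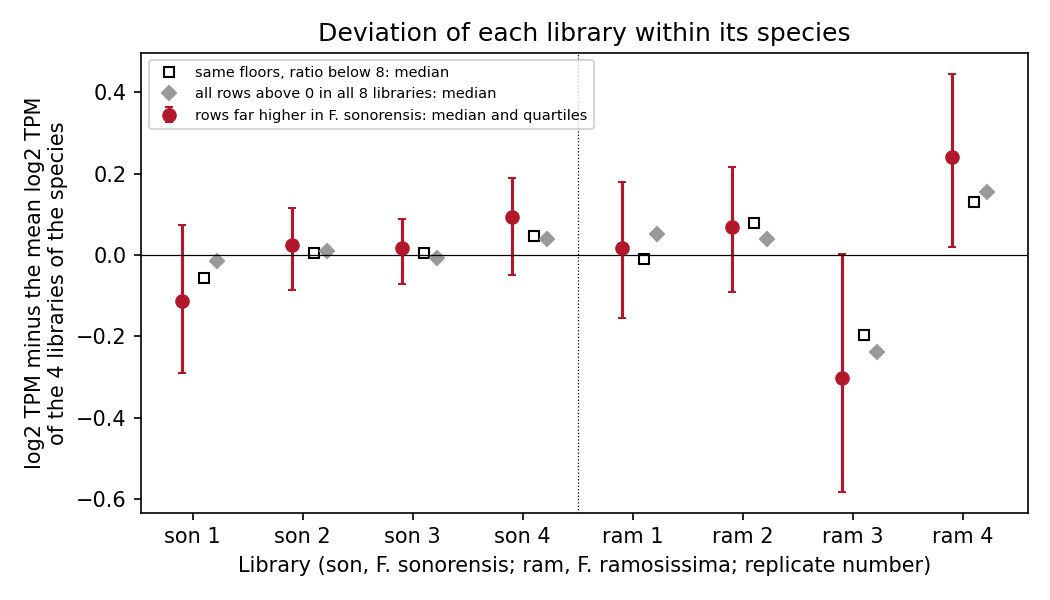
Deviation of each library from its species, as log2 TPM minus the mean log2 TPM over the 4 libraries of the species (y axis), for the 8 libraries (x axis). Red points are medians over the 133 rows with quartiles as bars, open squares are medians over the 418 rows with a ratio below 8, and grey diamonds are medians over all shared rows. Replicate 3 of *F. ramosissima* lies lowest, at -0.30, and replicate 4 highest, at 0.24.

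Over the 133 rows, the median CV between replicates was 14.9% in *F. sonorensis*, with quartiles of 9.56 and 20.7%, and 25.4% in *F. ramosissima*, with quartiles of 15.9 and 40.8%. Over all shared rows it was 13.9% and 22.6%, respectively. A CV of at least 50% was found in 3 of the 133 rows (2.26%) in *F. sonorensis* and in 16 (12.03%) in *F. ramosissima*, compared with 5.98% and 13.4% of all shared rows. Against all shared rows, whose median TPM was lower in both species, wide scatter was thus no more frequent in the 133 rows. To compare rows of like abundance, the 67 of the 133 rows within the quartiles of their mean in a species were also set beside other shared rows in the same range. In *F. sonorensis*, the median CV was 14.6% over the 67 rows and 10.5% over 499 other rows. Without replicate 1 these values were 8.53% and 7.40%, and without any other library of that species the 67 rows had 13.5 to 16.4%. In *F. ramosissima*, the median CV was 23.6% over the 67 rows and 19.9% over 2355 other rows. Without replicate 3 the values were 17.7% and 14.8%, and without replicate 4 the median of the 67 rows was 1.02 times that of the other rows. The gap in *F. sonorensis* was thus narrow without replicate 1, and that in *F. ramosissima* was nearly gone without replicate 4. Over the wider range of mean of all 133 rows, 945 other rows had a median CV of 10.6% in *F. sonorensis* and 12065 other rows had 23.4% in *F. ramosissima*. The rule selects on means of 4 values, and the part of this selection in the spread was not tested.

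**Figure D4:**
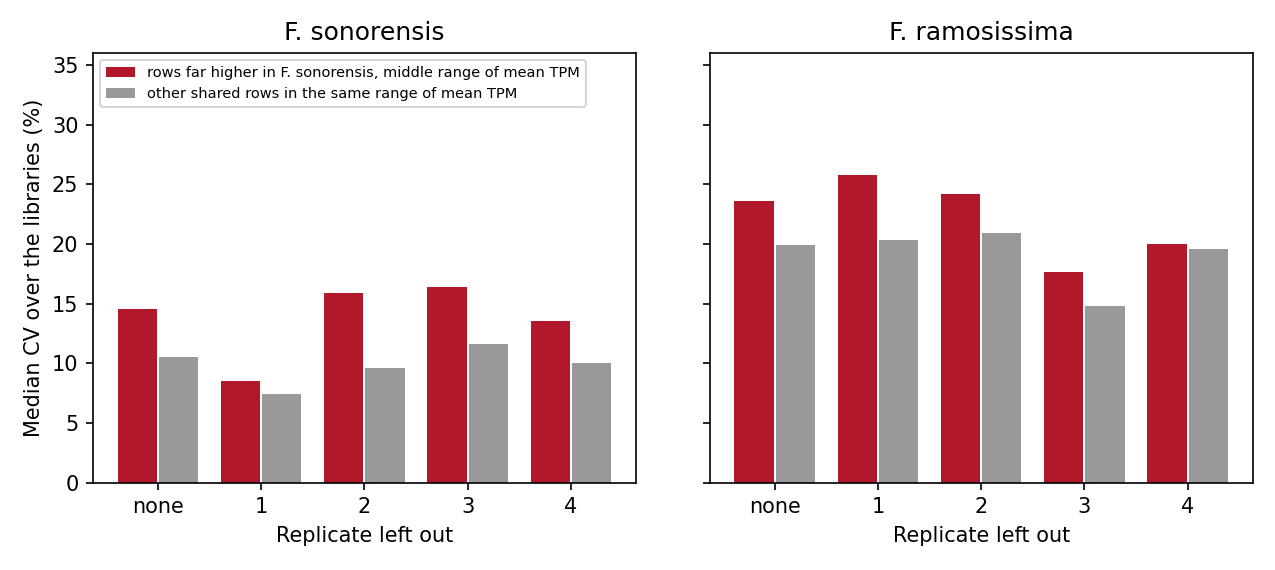
Median CV between libraries (y axis, %) over the 67 of the 133 rows within the quartiles of their mean TPM in a species (red) and over other shared rows in the same range (grey), with all libraries and with each replicate left out (x axis), for *F. sonorensis* (left) and *F. ramosissima* (right). The bars come close without replicate 1 of *F. sonorensis*, at 8.53 and 7.40%, and without replicate 4 of *F. ramosissima*, where the red bar is 1.02 times the grey one.

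To read the ratio in libraries that took no part in the choice, the rule was applied to 6 libraries, and the ratio was then read between the 2 left out, 1 of each species. This was done for all 16 such pairs, and the rows chosen numbered from 124 to 159. Between the libraries left out, 61.6 to 96.8% of these rows reached a ratio of 8, with a median of 85.4% over the pairs. Over all rows above 0 in the 6 libraries, with no floor, ceiling or ratio asked, this share was 13.5 to 22.7%. More transcript in *F. sonorensis* was read in 99.3 to 100.0% of the rows chosen, compared with 78.2 to 84.3% of all such rows. The lowest share at 8 came from replicate 1 of *F. sonorensis* with replicate 4 of *F. ramosissima*, which were the library that was often low in its species and the one that was often high. The highest came from replicate 4 of *F. sonorensis* with replicate 3 of *F. ramosissima*. The 16 pairs share libraries and are not independent of each other, so no error is given. The replicates of a species may be technical, and the rows were chosen for a high ratio. These shares therefore describe how the ratio repeated between libraries and are no independent support for the species difference.

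The rule was also applied to 7 libraries at a time, with the single library left out set against the mean of the other species. As that mean had taken part in the choice, these readings are not independent of the rule and are given as a description. The rows so chosen numbered from 126 to 151. The share at a ratio of 8 was 76.8, 91.9, 94.0 and 90.4% for replicates 1 to 4 of *F. sonorensis*. It was 88.4, 89.0, 96.0 and 72.8% for replicates 1 to 4 of *F. ramosissima*. The median ratio in the library left out ranged from 11.8 for replicate 4 to 20.1 for replicate 3, both of *F. ramosissima*. Of 1098 readings, 1097 had more transcript in *F. sonorensis*.

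The single reading in the other direction came from a row that is not among the 133. It had 9.96, 16.3, 2.55 and 380 TPM in *F. ramosissima* and 73.6, 68.6, 107 and 235 TPM in *F. sonorensis*. Replicate 4 was the highest library in each species, and with it the *F. ramosissima* mean was 102 TPM, just over the ceiling. Of the 133 rows, 114 met the rule whichever single library was left out, and 19 were lost without at least 1 library. The most, 11, were lost without replicate 3 of *F. ramosissima*, and 7 were lost without replicate 4 of *F. sonorensis*.

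**Figure D5:**
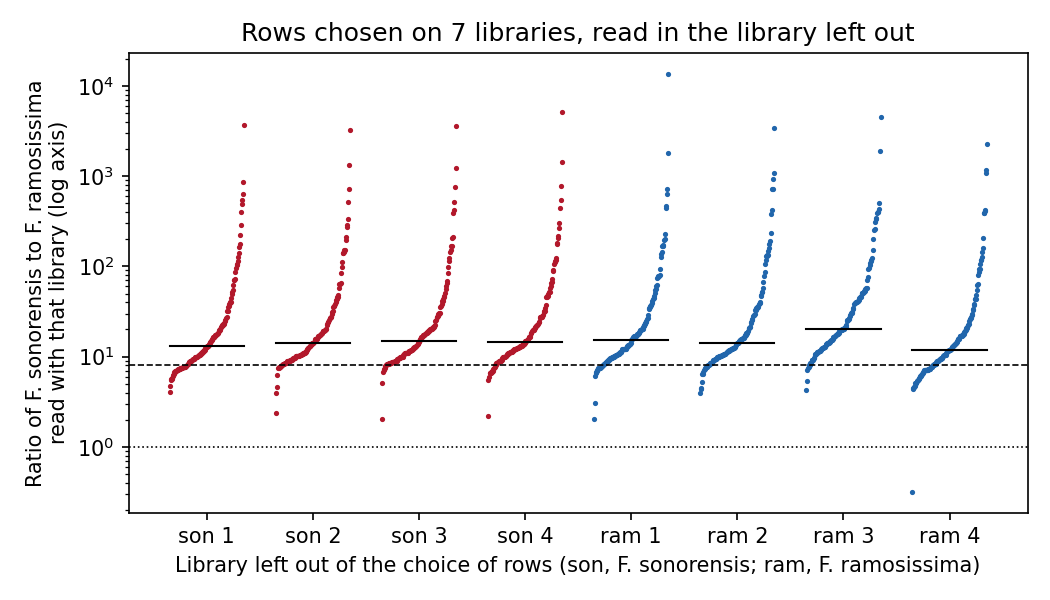
Ratio of *F. sonorensis* to *F. ramosissima* (y axis, log scale) for rows chosen on 7 libraries, read with the library left out (x axis) against the mean of the other species, which took part in the choice, in red for *F. sonorensis* and in blue for *F. ramosissima*. Each point is a row, black bars are medians, the dashed line is a ratio of 8 and the dotted line a ratio of 1. One reading, at 0.318 in replicate 4 of *F. ramosissima*, lies below 1, and 3 readings listed at 0 are not drawn.

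Finally, the row numbers of the 133 rows were examined, which the rule did not use. The numbers went from 184 to 33187. From row number 19000 on, a boundary taken from earlier results on this table, there were 62 of the 133 rows (46.6%), close to the 46.9% of all rows of the table, the 47.6% of the 418 rows with a ratio below 8 and the 47.9% of the rows under the rule in the other direction. The share was 41.1% of all shared rows and 42.0% of those with at least 100 TPM in *F. sonorensis*. Among the 18 rows that reached the floor in *F. sonorensis* but were listed at 0 in all *F. ramosissima* libraries, none had such a number. Of the 70 rows with a ratio from 8 to 16, 39 lay from this boundary on, compared with 11 of 32 from 16 to 32, 7 of 19 from 32 to 128 and 5 of 12 beyond. No 2 of the 133 rows had consecutive numbers, and 8 (6.02%) had another within 5 numbers. In the 418 rows with a ratio below 8, these shares were 4.31% and 16.7%. They were 0 and 2.74% in the 73 rows under the rule in the other direction. Such shares rise with the number of rows in a set, so nothing is read from them. What the order of the rows stands for is not given in the sources used here, so these numbers cannot be read as positions in a genome.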

How the data were processed

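Leaf RNA-seq of 4 *F. sonorensis* and 4 *F. ramosissima* libraries was used, with paired-end reads of 150 bp per the labels. The authors deposited 1 table in TPM. RSEM is named in the submitters' processing notes, with no version. For the aligner, the reference sequences and the matching of rows between species, the sources used here give nothing. TPM keeps no depth, so counts were neither modelled nor given intervals. Columns were assigned to samples by species and replicate number.

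The 133 rows were chosen by the stated rule, and the rows, lists and boundaries with earlier results of these data known. Rows averaging 1 TPM or more were compared on log2(TPM + 1) with limma 3.58.1 (R 4.3.3): a term for species alone, moderated variances with a trend, Benjamini-Hochberg adjustment over 16323 rows, two-sided, called below 0.05. Fold changes on this scale understate the change of low rows. The limma step was tested on simulated data for this comparison over 16323 rows. It called 71% of 100 rows given a log2 change of 1, 99% of 100 given one of 3, and 10 unchanged rows. All other simulated rows had the same mean in both species. In the data, 87.9% of tested rows were called and their median log2 difference was 1.01, so these rates do not carry over. TMM factors were unweighted, with 30% of the ratios and 5% of the abundances trimmed from both ends. Other steps used Python 3.11.15, numpy 2.4.6 and pandas 2.3.3.

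Row names were printed by a rule for 2 rows, the highest mean in *F. sonorensis* and the largest ratio, because the table does not pair names with genes. Lists of C4 cycle and photorespiration genes could not be matched, and no result is given for them. Alternatives were other rule limits, pseudocounts, filters, scalings, a replicate block and leaving out each library.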

Additional observations from a re-analysis of the deposited data

Results flagged for a closer look

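In 38 groups of 4 values, from the rows taken by rank and the totals of the libraries, the highest or lowest library was set off by more than Dixon's critical value allows in 1, where chance alone gives about 1 of 20. The row ranked 58 by mean TPM in *F. sonorensis*, which was the sixth by ratio, had 1.0 TPM in replicate 1 of *F. ramosissima*, compared with 0.47, 0.49 and 0.51 TPM in the others, and the gap was 0.925 of the whole range. A further 6 groups came from rows singled out for their spread, to which the chance rate does not apply. Of these, the row ranked 38 by that mean had 824 TPM in replicate 4 of *F. sonorensis*, whereas the other 3 libraries had 125, 96.2 and 110 TPM, and the gap was 0.961 of the whole range.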

How the results depend on the processing

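The number of rows under the rule was 133. It was 288 and 63 with a ratio of at least 4 and 16, 289 and 57 with a floor of 50 and 200 TPM, 75 when the lowest *F. sonorensis* library had to exceed the highest *F. ramosissima* library 8-fold, 26 after TMM scaling and 29 after scaling to the median of shared rows. Quantile normalization gave 98. Leaving out each library gave 126 to 151. After rescaling over shared rows the count was 132, of which 109 were among the 133. Without replicates 3 and 4 of *F. ramosissima*, chosen after seeing the data, it was 138. All 133 rows were called higher in *F. sonorensis* in each of 18 other limma settings, which says no more than the rule does. Over all tested rows, 10126 of 16323 were called in this direction in the main setting. After TMM scaling it was 5137 of 16409, and 4821 of 7682 with a filter at 10 TPM. Calls over all rows in either direction numbered 14346 of 16323, and 6718 of 7682 with a filter at 10 TPM, where fewer rows were tested. Leaving out each library gave 14045 to 14342.

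The median log2 difference of the 133 rows was 3.84. It was 3.44 with a pseudocount of 5, 2.41 after TMM scaling and 2.61 after median centring, and 3.74 to 3.92 without each library. The replicate block gave 3.84 and 14401 calls, and changed no call among the 133 rows. Libraries with the same number in both species had deviations that correlated at 0.14, 0.14, 0.01 and 0.09. For libraries with different numbers, the correlations ran from -0.15 to 0.09. The numbers were not taken as a pairing in the main fit, and whether they stand for a shared batch was not tested.

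The *F. ramosissima* share of 0.234% was 0.292% over shared rows only, and 0.221 to 0.251% without each library. The *F. sonorensis* share was 4.02 to 4.16% without each library. The median CV was 8.78 to 17.2% in *F. sonorensis* and 19.4 to 26.6% in *F. ramosissima* without each library. The share of rows from row number 19000 on was 36.5% with a ratio of at least 16. Rows with another within 5 numbers made up 6.02%. The share of rows reaching a ratio of 8 in the library left out was 87.4% on average and ranged from 72.8 to 96.0%, and with 1 library of each species left out, chosen after seeing the data, it was 82.6% on average. The causes of these changes were not tested. Depth is unknown, which limits what can be read from values near 0.01 TPM.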

Other observations

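Over all 133 rows, Dixon's criterion was passed in *F. sonorensis* by 14 rows (10.5%), of which 12 had replicate 1 as the library that stood apart, as the lowest in 8 rows and the highest in 4. The 418 shared rows that met both TPM limits with a ratio below 8 passed it in 34 rows (8.13%), 24 of them by replicate 1. Over all shared rows it was passed in 823 rows (6.28%), 433 of them by replicate 1. In *F. ramosissima* it was passed by 5 of the 133 rows (3.76%) and by 6.04% of all shared rows.

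Gene12118 was 1 of 4 rows in which replicates 2 and 4 of *F. ramosissima* were both at least 2-fold above replicates 1 and 3, a pattern looked for after the values were seen. Such rows made up 3.01% of the 133 rows and 2.16% of all shared rows. The *F. sonorensis* libraries of Gene12118 showed no such split, from 1094 to 1444 TPM.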
